A study of Mus musculus with 8 samples.

Results

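Serine, asparagine and proline are amino acids that a cell can make for itself, and 10 genes of these routes were followed here in 4T1, a mouse triple-negative breast cancer cell line. They are Phgdh, Psat1 and Psph of the serine route, Shmt1, Shmt2, Mthfd2 and Mthfd1l of serine breakdown and folate metabolism, Asns for asparagine, and Aldh18a1 and Pycr1 for proline. They were taken by gene symbol from both tables of comparisons, and all 10 were present in both, of 28712 genes listed in either. The wild-type cells were kept at low oxygen in RPMI and received 0.5 µg/ml of a purified single-domain antibody (sdAb) protein. The group sdAb#07.81 (48 h) had the antibody against NUPR1, a stress-induced transcriptional co-regulator, for 48 h. The group sdAb#07.81 (24 h) had the same protein for 24 h, and sdAb-Con (48 h) had a control sdAb for 48 h. Both proteins carried Tat, Flag and His tags and the cOdc1 degron, and each group was 1 cell line sequenced as 2 libraries. The untreated Con group is in neither table and was not analysed here.

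Serine is built from a glycolytic intermediate by 3 enzymes in a row, Phgdh, Psat1 and Psph. The hydroxymethyltransferases Shmt1 (cytosol) and Shmt2 (mitochondria) then split serine into glycine and a carbon unit carried on folate, which Mthfd2 and Mthfd1l pass on inside mitochondria towards formate for nucleotide synthesis. Asns moves an amide group from glutamine onto aspartate, while Aldh18a1 and Pycr1 catalyse the first and the last step from glutamate to proline. Many of these genes are known targets of Atf4, the transcription factor of the amino acid response, and Nupr1 is induced by the same response.

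The 250 bases before the RefSeq start of 4 of these genes are shown because the genes moved in opposite directions between 24 h and 48 h of sdAb#07.81. Asns (chr6:7693210-7693459, minus strand) and Pycr1 (chr11:120643749-120643998, minus strand) were higher at 48 h, and Shmt2 (chr10:127522445-127522694, minus strand) and Mthfd1l (chr10:3972825-3973074, plus strand) were lower. Psph and Shmt1 were also lower and are not shown. Sequences and positions are those of RefSeq on GRCm38.p6, read 5′ to 3′ on the gene's strand, and capitals mark matches to the searched motifs.
Asns: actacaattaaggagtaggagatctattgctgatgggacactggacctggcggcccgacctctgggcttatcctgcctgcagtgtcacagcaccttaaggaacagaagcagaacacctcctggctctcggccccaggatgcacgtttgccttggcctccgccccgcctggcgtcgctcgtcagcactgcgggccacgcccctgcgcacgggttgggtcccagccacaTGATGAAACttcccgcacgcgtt
Pycr1: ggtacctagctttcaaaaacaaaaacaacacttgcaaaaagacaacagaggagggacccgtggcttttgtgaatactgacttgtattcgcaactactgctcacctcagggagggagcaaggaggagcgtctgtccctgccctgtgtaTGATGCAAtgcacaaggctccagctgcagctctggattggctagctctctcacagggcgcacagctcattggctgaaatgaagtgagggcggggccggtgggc
Shmt2: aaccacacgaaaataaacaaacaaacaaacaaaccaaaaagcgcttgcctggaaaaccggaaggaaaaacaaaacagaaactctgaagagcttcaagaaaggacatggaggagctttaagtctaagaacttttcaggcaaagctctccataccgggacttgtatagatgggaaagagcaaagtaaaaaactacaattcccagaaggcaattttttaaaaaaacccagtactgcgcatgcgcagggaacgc
Mthfd1l: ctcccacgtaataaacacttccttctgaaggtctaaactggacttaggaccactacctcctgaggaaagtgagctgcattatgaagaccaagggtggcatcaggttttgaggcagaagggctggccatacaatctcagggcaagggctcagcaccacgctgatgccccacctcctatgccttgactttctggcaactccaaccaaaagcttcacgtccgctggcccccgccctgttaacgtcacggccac

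With these values already known, 4 motifs were searched on both strands in windows from 250 bases before to 50 after a start, and windows were found for all 10 genes (2 for Psat1). The first was TGATGNAA, the amino acid response element that Atf4 and C/EBP factors bind. It was found in Asns, from 23 to 16 bases before the start, and in Pycr1, from 103 to 96 bases before it, and in 3.97% of 32851 windows of all genes. The next 2 overlap it. TGATGAAAC was found in Asns and in 0.247% of windows, and TTGCATCA was found in Pycr1, as its reverse complement, and in 0.895% of windows. The last, the E-box CACGTG, was found in Aldh18a1, from 59 to 54 bases before the start, and in 7.15% of windows. No window of the other 7 genes held any of the 4 motifs. These matches are letters in a window and were not tested as binding sites. Elements outside the windows were not searched, and a relation of motif and direction of change was not tested.

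Each table lists a mean over 4 libraries, from which the whole read counts of single libraries were worked out for 99.9% of genes, and these held 15129766 to 18134581 reads a library. Levels are given as normalized reads, which are read counts divided by the library's size factor. Libraries of a group are called first and second by depth and carry no replicate number. Whether they came from separate cultures is not stated, so p-values measure only the spread between these libraries. The median coefficient of variation between the 2 libraries of a group was 7.61% to 8.98% over tested genes. Of 7 epithelial markers, Krt7, Krt8, Krt18, Epcam and Cdh1 had 2709 to 17436 normalized reads in every library, Krt14 had 225 to 632, and Krt5 was not listed in the table against sdAb-Con (48 h). At 48 h, Cdh1 was higher with sdAb#07.81 than with sdAb-Con and Krt14 was lower, and their part in the results was not tested. Of 5 leukocyte markers, Ptprc, Cd3e and Itgam had at most 4.23 normalized reads, Adgre1 was not listed there, and Cd68 had 228.2 to 999.8. Of 5 fibroblast or endothelial markers, Pdgfra had 585 to 1199.8, Col1a1 had 36.8 to 207, Pecam1 and Cdh5 had at most 10.04, and the reads of Col1a2 were not recovered. Of the receptors low in triple-negative cells, Pgr had at most 1.78 normalized reads, while Esr1 had 263 to 434 and Erbb2 had 522 to 856. Nupr1, whose protein is the antibody's target, had a log2 fold change of −0.17 ± 0.11 (SE) at 48 h against sdAb-Con (48 h), which did not pass the test (adjusted p = 0.304).

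Per kilobase of longest transcript, the mean level over the 3 groups was highest for Asns, at 4135 normalized reads, above 98.7% of tested genes. Psat1 (3459.6) and Phgdh (2587) followed, and then Shmt2 (1316), Aldh18a1 (1166) and Mthfd2 (1019.7). Mthfd1l (401), Psph (389.8), Shmt1 (230.5) and Pycr1 (160.2) were lowest, with Pycr1 above 53.5% of tested genes. This order of means did not hold in every group. In sdAb#07.81 (24 h), Psat1 (3364) exceeded Asns (2922). Shmt2 exceeded Aldh18a1 there (1856 against 1092) and lay below it in both 48 h groups (1166 against 1318 with sdAb-Con and 924 against 1087 with sdAb#07.81). Mthfd1l exceeded Psph at 24 h (597 against 394) and lay below it in both 48 h groups (348 against 459.8 with sdAb-Con and 259.8 against 316 with sdAb#07.81). Pycr1 exceeded Shmt1 with sdAb-Con (220.1 against 203).

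After 48 h, 8 of the 10 genes were lower with sdAb#07.81 than with sdAb-Con and none were higher. A gene was called at an adjusted p under 0.05, from the deposited Wald test with p-values adjusted over the 13876 genes whose mean normalized count reached 10. Over all of these, 6.75% were called lower and 9.9% higher. The falls were modest. All 10 log2 fold changes were negative, from −0.54 to −0.16 with a median of −0.32, beside a median of −0.02 over all tested genes. Their SEs ran from 0.0896 to 0.154, beside a median of 0.154 over all tested genes. Most of the 10 genes were thus measured more closely than a typical tested gene, which makes a modest change easier to call. In 9 of the 10 genes both sdAb#07.81 libraries lay under both sdAb-Con libraries, as they did in 30.4% of tested genes, while 28.4% lay wholly above. The count depended on processing. Over every gene with a deposited adjusted p, without the minimum, 5 of the 8 stayed under 0.05 (Psph, Phgdh, Mthfd1l, Mthfd2 and Shmt2). Of all genes, 659 were then lower and 1135 higher. A limma-voom fit to the recovered reads called 3 (Psph, Phgdh and Mthfd1l), beside 492 genes lower and 936 higher of all it tested, and on leaving out either sdAb-Con library or the first sdAb#07.81 (48 h) library it called 0.

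The log2 fold change in this comparison also moved with transcript length. Across 13725 genes with a length, the Spearman correlation of length and log2 fold change was 0.45, and genes are not independent replicates. The median log2 fold change ran from −0.27 in the shortest of 10 equal bins of genes to 0.33 in the longest. The 10 genes had longest transcripts of 1893 to 3687 bases, with a median of 2738, beside 3143 over tested genes. With a joint trend on length, GC content and mean count removed, which were not removed one by one, 2 of the 10 genes were called, Psph at −0.46 (adjusted p = 0.00594) and Mthfd1l at −0.39 (adjusted p = 0.0238), and all 10 values stayed negative, from −0.46 to −0.04. Over all genes with a length, 2.15% were then lower and 3.05% higher. The lists of related genes further on are given without the trend removed, so their calls against sdAb-Con (48 h) share this limit. Against sdAb#07.81 (24 h) the correlation with length was −0.13, and removing the trend left 6 genes lower and 2 higher, with Phgdh and Mthfd2 added to the calls, beside 20.8% lower and 20.6% higher over all genes with a length.

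**Figure D1:**
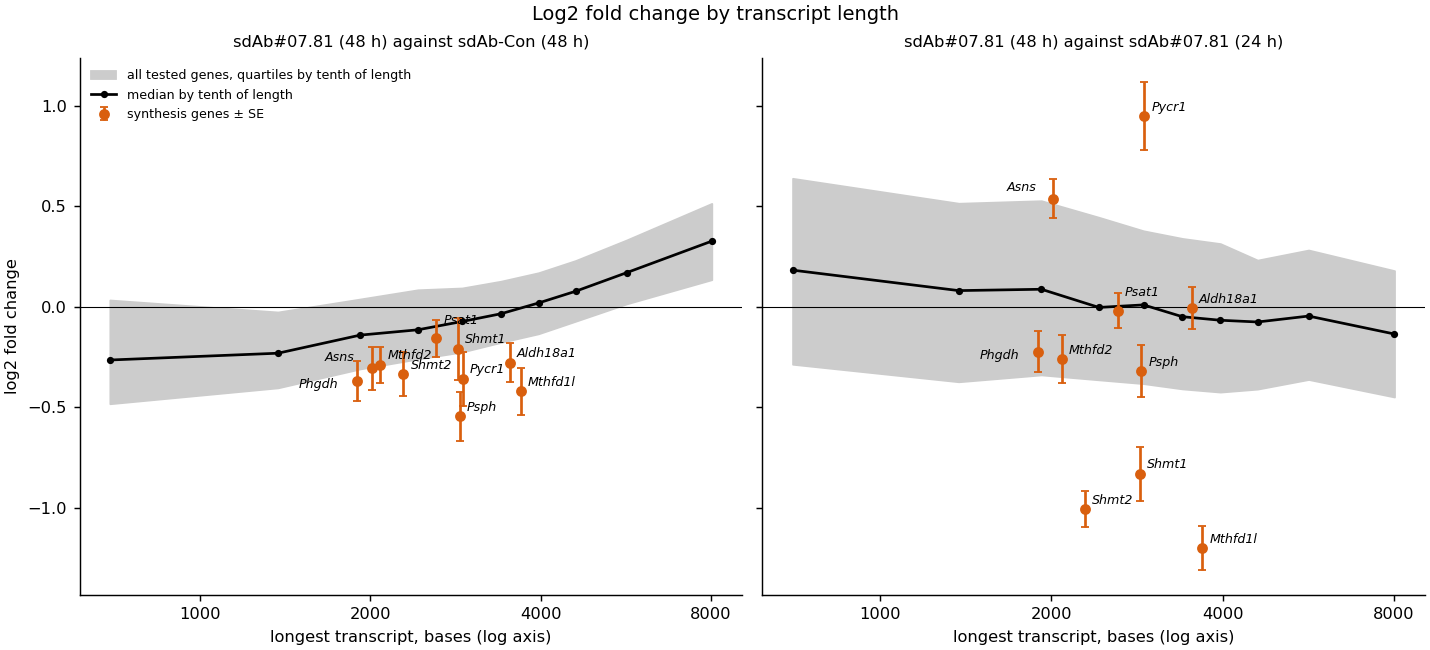
Log2 fold change (y axis) against the longest transcript of each gene in bases (x axis, log scale), for both comparisons; the black line joins the medians of all tested genes in 10 bins of length, the gray band spans their quartiles, and orange points are the 10 genes with their SE. The black line climbs from −0.27 to 0.33 in the comparison with sdAb-Con (48 h) and is flatter in the other.

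After 48 h of sdAb#07.81, 4 genes were lower than after 24 h and 2 were higher. Mthfd1l, Shmt2, Shmt1 and Psph fell, and Asns and Pycr1 rose. Of 13968 tested genes, 22.1% were lower and 19.8% higher, and the share of the 10 genes that rose was near the latter. The 10 log2 fold changes ran from −1.20 to 0.95 with a median of −0.24, beside a median of −0.01 over all tested genes. Here too the SEs were low, from 0.0873 to 0.167, beside a median of 0.171 over all tested genes. The libraries of 6 of the 10 genes lay wholly lower at 48 h and those of 2 wholly higher, beside 36.4% and 34.7% of tested genes. Limma-voom also called 6 of the 10, beside 3088 genes lower and 2926 higher of all it tested, and leaving out 1 library at a time left 5 or 6. Time in culture and time with the antibody cannot be told apart here, since the tables hold no 24 h control.

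The difference of both comparisons gives sdAb-Con (48 h) over sdAb#07.81 (24 h), groups that differ in both time and protein. From the deposited values alone it ran from −0.78 for Mthfd1l, with an error of at most 0.16, to 1.31 for Pycr1, with an error of at most 0.21. Tested by limma-voom on the recovered reads, a test chosen after the values were seen, 3 genes were higher in sdAb-Con (48 h), Pycr1, Asns and Aldh18a1, and 3 were lower, Mthfd1l, Shmt2 and Shmt1. Over all 13872 tested genes, 26.4% were lower and 25.1% higher, shares near those of the 10 genes. The libraries of 3 of the 10 genes lay wholly lower and those of 6 wholly higher, beside 37.9% and 36.8% of tested genes. Because the 3 comparisons share libraries, they are not independent of each other.

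**Figure D2:**
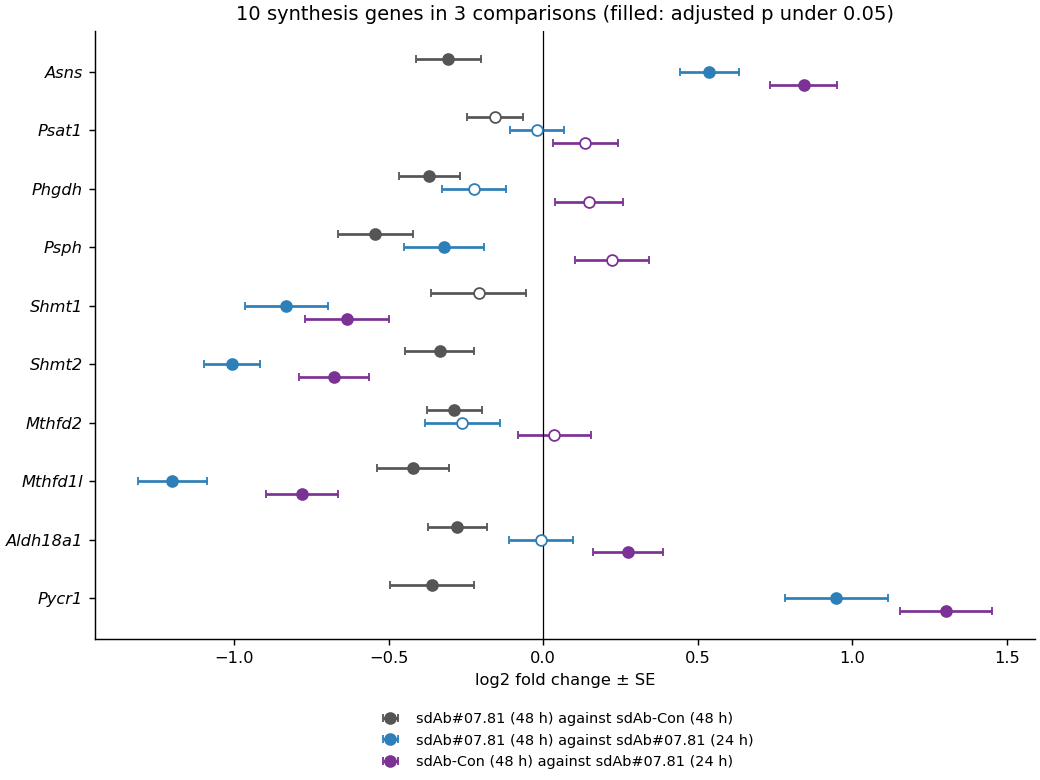
Log2 fold change with its SE (x axis) of each gene (y axis) in 3 comparisons; filled points have an adjusted p under 0.05, from the deposited Wald test for gray and blue and from limma-voom for purple. All gray points lie left of 0, while the blue points run from −1.20 for Mthfd1l to 0.95 for Pycr1.

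Phgdh, the first enzyme of the serine route (chromosome 3, 98220486 to 98247306, minus strand, as listed in the tables, whose genome build is not named), had 5454 and 5514 normalized reads in sdAb-Con (48 h). It had 5244 and 4677 in sdAb#07.81 (24 h), and 3963 and 4531 in sdAb#07.81 (48 h). The 48 h sdAb#07.81 libraries were the lowest and did not overlap with either other group. The log2 fold change was −0.37 ± 0.10 (SE) against sdAb-Con (48 h), with an adjusted p of 0.00275. With the trend on length, GC content and mean count removed, it was −0.12 and no longer passed (adjusted p = 0.632). Against 24 h it was −0.22 ± 0.10 and did not pass (adjusted p = 0.0665), and without the first sdAb#07.81 (48 h) library limma-voom gave −0.13.

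Psat1, the aminotransferase of the second step (chromosome 19, 15882042 to 15924701, minus strand), had 9580.5 and 9769.6 normalized reads in sdAb-Con (48 h). It had 8754 and 8856 in sdAb#07.81 (24 h), and 8357 and 9005 in sdAb#07.81 (48 h). The 24 h libraries lay between both libraries at 48 h. Psat1 passed in no comparison, and its log2 fold change was −0.16 ± 0.09 (adjusted p = 0.258) against sdAb-Con (48 h), with a 95% interval of −0.34 to 0.02. Limma-voom gave −0.16, and −0.10 without the first sdAb#07.81 (48 h) library. With the joint trend removed the value was −0.04 (adjusted p = 0.902). Against 24 h it was −0.02 ± 0.09 (adjusted p = 0.878), with an interval of −0.19 to 0.15.

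Psph, the phosphatase that releases serine (chromosome 5, 129842622 to 129864513, minus strand), had 1335 and 1311 normalized reads in sdAb-Con (48 h). It had 1129 and 1138 in sdAb#07.81 (24 h), and 815 and 1001 in sdAb#07.81 (48 h). The 3 groups did not overlap. Its fall against sdAb-Con (48 h) was the largest of the 10 genes, to 0.686 of the control level, a log2 fold change of −0.54 ± 0.12 (adjusted p = 0.000228). For that comparison limma-voom gave −0.55 (adjusted p = 0.00762), and −0.70 to −0.40 on leaving out 1 library at a time. Against 24 h the log2 fold change was −0.32 ± 0.13 (adjusted p = 0.0329), a call lost in the deposited adjusted p and in 5 of the 6 limma-voom fits that left out 1 library, with −0.18 without the first sdAb#07.81 (48 h) library.

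Shmt2, the mitochondrial hydroxymethyltransferase (chromosome 10, 127352992 to 127358313, minus strand), had 2416 and 2922 normalized reads in sdAb-Con (48 h). It had 4279.5 and 4219 in sdAb#07.81 (24 h), and 2161 and 2069.9 in sdAb#07.81 (48 h). The 24 h libraries were far above the rest. From 24 h to 48 h of sdAb#07.81 the level fell to 0.498 of the earlier one, a log2 fold change of −1.01 ± 0.09 (adjusted p = 1.01e-26). It was −0.34 ± 0.11 relative to the control sdAb (adjusted p = 0.0208), a call lost in limma-voom (−0.33, adjusted p = 0.0697) and with that joint trend removed, where the value was −0.13 (adjusted p = 0.626). Without the second sdAb-Con library limma-voom gave −0.19.

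Shmt1, the cytosolic form (chromosome 11, 60678930 to 60702544, minus strand), had 509 and 653 normalized reads in sdAb-Con (48 h). It had 866 and 920.1 in sdAb#07.81 (24 h), and 521 and 483 in sdAb#07.81 (48 h). As for Shmt2, the 24 h libraries were highest, but the groups of 48 h overlapped. The log2 fold change against 24 h was −0.83 ± 0.13 (adjusted p = 5.4e-09). It was −0.21 ± 0.15 relative to the control sdAb and did not pass (adjusted p = 0.3997), with a 95% interval of −0.51 to 0.09. With the joint trend removed it was −0.13 (adjusted p = 0.761). In limma-voom it was −0.38 without the first sdAb-Con library and −0.02 without the second.

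Mthfd1l, the mitochondrial formyltetrahydrofolate synthetase that makes formate (chromosome 10, 3923118 to 4117081, plus strand), had 1382 and 1180.3 normalized reads in sdAb-Con (48 h). It had 2071 and 2329.6 in sdAb#07.81 (24 h), and 924 and 992 in sdAb#07.81 (48 h). The 3 groups did not overlap, and the 24 h group was highest. Against 24 h it fell the most of the 10 genes, to 0.435 of the earlier level (log2 fold change −1.20 ± 0.11, adjusted p = 1.79e-25). Relative to the control sdAb it was −0.42 ± 0.12 (adjusted p = 0.00457). For that comparison limma-voom gave −0.42 (adjusted p = 0.0377), and −0.53 to −0.30 on leaving out 1 library at a time.

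Mthfd2, the mitochondrial dehydrogenase and cyclohydrolase that acts before Mthfd1l (chromosome 6, 83282673 to 83302890, minus strand), had 2244 and 2310.3 normalized reads in sdAb-Con (48 h). It had 1973 and 2499 in sdAb#07.81 (24 h), and 1797 and 1934 in sdAb#07.81 (48 h). The 24 h libraries stood on either side of the sdAb-Con libraries. The log2 fold change was −0.29 ± 0.09 (adjusted p = 0.0129) against sdAb-Con (48 h), a call lost in limma-voom (−0.29, adjusted p = 0.128) and with the joint trend removed, where the value was −0.12 (adjusted p = 0.537). Against 24 h it was −0.26 ± 0.12 and did not pass (adjusted p = 0.0674). Limma-voom gave −0.42 for it without the first 24 h library, the 1 of 6 such fits that called it, and −0.08 without the second. The contrast of sdAb-Con (48 h) over sdAb#07.81 (24 h) gave 0.04 ± 0.12 (adjusted p = 0.82, limma-voom).

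**Figure D3:**
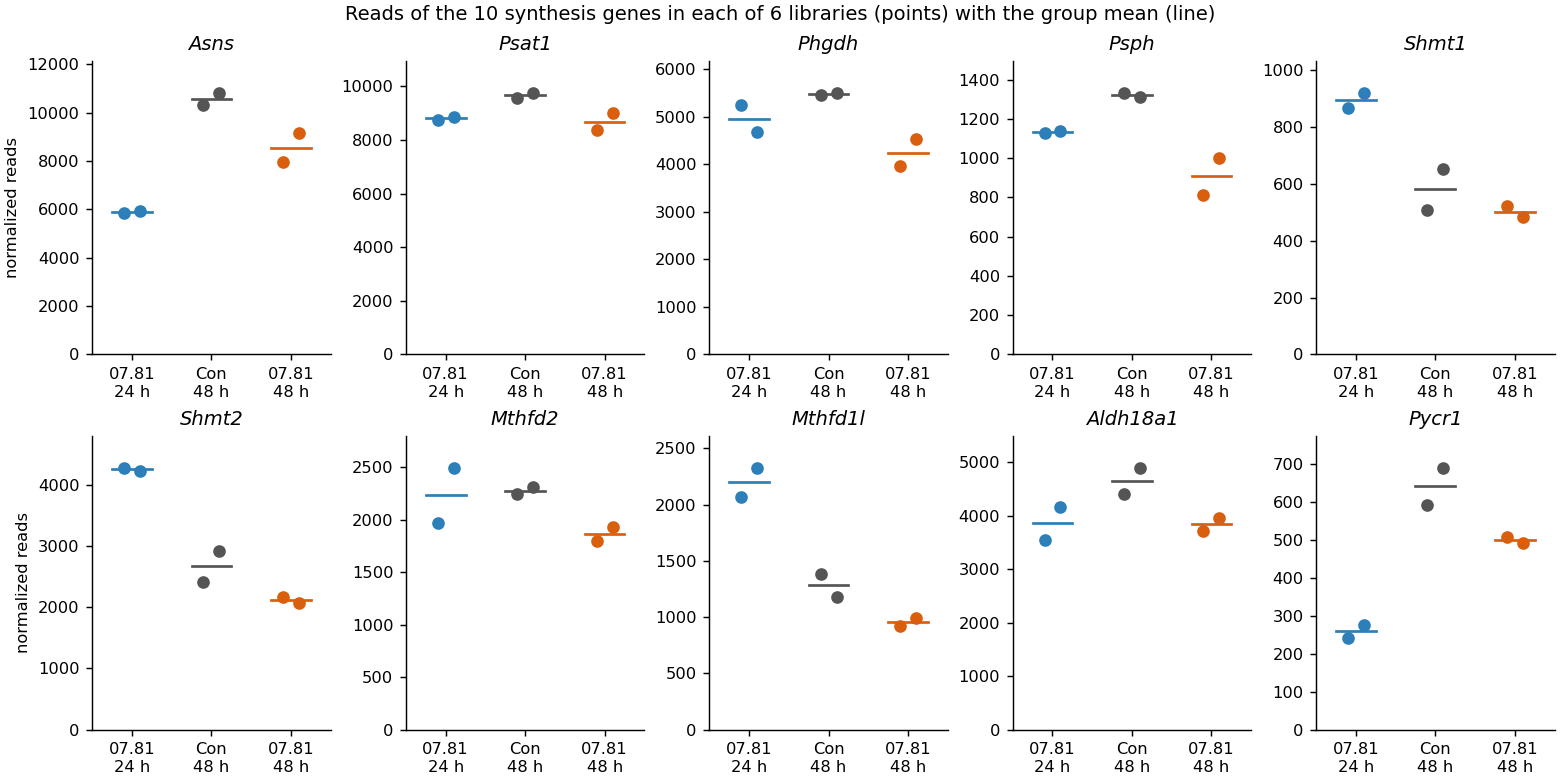
Normalized reads (y axis, from 0) of each of the 10 genes in the 2 libraries of each group (points) with the group mean (line). Asns and Pycr1 are lowest in sdAb#07.81 (24 h), where Shmt1, Shmt2 and Mthfd1l are highest.

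Asns, asparagine synthetase (chromosome 6, 7675169 to 7693254, minus strand), had 10314 and 10828 normalized reads in sdAb-Con (48 h). It had 5861 and 5919 in sdAb#07.81 (24 h), and 7951 and 9143 in sdAb#07.81 (48 h). The 3 groups did not overlap, with sdAb#07.81 (24 h) lowest and sdAb-Con (48 h) highest. Asns rose from 24 h to 48 h of sdAb#07.81 by a log2 fold change of 0.54 ± 0.10 (adjusted p = 2.14e-07), or 1.45-fold. At 48 h it was lower with sdAb#07.81 than with sdAb-Con, by a log2 fold change of −0.31 ± 0.11 (adjusted p = 0.0275). That call was lost in the deposited adjusted p, in limma-voom (−0.31, adjusted p = 0.0718) and with the joint trend removed (−0.13, adjusted p = 0.601). From sdAb#07.81 (24 h) to sdAb-Con (48 h) the difference was 0.84 ± 0.11 (adjusted p = 2.81e-06, limma-voom).

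Pycr1, the reductase that completes proline (chromosome 11, 120526538 to 120534595, minus strand), had 591 and 691 normalized reads in sdAb-Con (48 h). It had 242 and 276 in sdAb#07.81 (24 h), and 508 and 491 in sdAb#07.81 (48 h). The groups stood in the order seen for Asns and did not overlap. From 24 h to 48 h of sdAb#07.81 it rose 1.93-fold, a log2 fold change of 0.95 ± 0.17 (adjusted p = 1.28e-07). Relative to the control sdAb it was −0.36 ± 0.14 (adjusted p = 0.0487), a call that was lost in the deposited adjusted p, in limma-voom (−0.35, adjusted p = 0.103), with centring on the median gene (−0.34, adjusted p = 0.0686) and with the joint trend removed (−0.25, adjusted p = 0.3602). sdAb-Con (48 h) exceeded sdAb#07.81 (24 h) by 1.30 ± 0.15 on the log2 scale (adjusted p = 6.66e-07, limma-voom), the widest difference among the 10 genes.

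Aldh18a1, the synthase of the first step to proline (chromosome 19, 40538701 to 40576907, minus strand), had 4400.2 and 4897 normalized reads in sdAb-Con (48 h). It had 3538 and 4167 in sdAb#07.81 (24 h), and 3712 and 3955 in sdAb#07.81 (48 h). The 48 h sdAb#07.81 libraries lay between those of 24 h. Relative to the control sdAb, its change on the log2 scale was −0.28 ± 0.10 (adjusted p = 0.0277), and this call was also lost in the deposited adjusted p, in limma-voom (−0.28, adjusted p = 0.1195) and with the joint trend removed (−0.21, adjusted p = 0.2299). Against 24 h it was −0.01 ± 0.10 (adjusted p = 0.966), with a 95% interval of −0.21 to 0.20. The level of sdAb-Con (48 h) exceeded that of sdAb#07.81 (24 h) by 0.27 ± 0.11 on the log2 scale (adjusted p = 0.0489, limma-voom), a call that 3 of the 6 fits without 1 library kept, with 0.16 without the first 24 h library.

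The genes whose pair of log2 fold changes lay nearest to that of Asns, among 10111 others whose mean normalized count reached 100 in both tables, were Tomm20, Btbd2, Pla2g12a, Acaa1a and Slc25a38. Their distances from Asns were 0.0045 to 0.0218 on the log2 scale, less than the SE of any of these values. Of the 9 other synthesis genes, Pycr1 was nearest, at a distance of 0.414, and 1898 genes, none of them a synthesis gene, were nearer than Pycr1.

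Of 26 other genes of the serine, glycine and folate routes, 20 were tested, and against sdAb-Con (48 h) 3 were lower and none higher, with a median log2 fold change of −0.11, beside 6.75% lower and 9.9% higher over all tested genes. These were Cth, which makes cysteine from cystathionine (−0.65 ± 0.12, adjusted p = 1.82e-06), the cytosolic folate enzyme Mthfd1 (−0.30 ± 0.10, adjusted p = 0.027) and the mitochondrial Aldh1l2 (−0.48 ± 0.18, adjusted p = 0.0496). Against 24 h, 5 were lower and 3 higher, with a median of 0.01, shares near the 22.1% lower and 19.8% higher over all tested genes. Thymidylate synthase Tyms fell by 1.73 ± 0.14 on the log2 scale (adjusted p = 4.52e-33) and Mthfd1 by 0.81 ± 0.10 (adjusted p = 1.51e-13). Serine racemase Srr rose by 1.40 ± 0.16 (adjusted p = 1.97e-16), and Amt of the glycine cleavage system rose by 1.37 ± 0.23 (adjusted p = 2.71e-08).

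Of 9 genes of proline and ornithine metabolism, 5 were tested. Against sdAb-Con (48 h) 2 were lower and none higher, with a median log2 fold change of −0.22 (all tested genes: 6.75% lower, 9.9% higher). Ornithine decarboxylase Odc1 was at −0.65 ± 0.10 (adjusted p = 1.56e-08) and the aminotransferase Oat at −0.31 ± 0.09 (adjusted p = 0.00548). Against 24 h, 2 were lower and 1 higher, with a median of 0.47 (all tested genes: 22.1% lower, 19.8% higher). Odc1 fell by 1.89 ± 0.10 on the log2 scale (adjusted p = 1.05e-76) and proline dehydrogenase Prodh by 1.10 ± 0.18 (adjusted p = 1.27e-08). Oat rose by 0.47 ± 0.10 (adjusted p = 2.4e-05).

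Of 14 genes of aspartate, asparagine and glutamate metabolism, 13 were tested. At 48 h, 5 of these were lower than with the control sdAb, with a median log2 fold change of −0.16 (all tested genes: 6.75% lower, 9.9% higher). Argininosuccinate synthase Ass1 (−0.72 ± 0.14, adjusted p = 6.83e-06), the mitochondrial aspartate aminotransferase Got2 (−0.39 ± 0.09, adjusted p = 0.000244), its cytosolic counterpart Got1 (−0.32 ± 0.09, adjusted p = 0.00451) and the alanine aminotransferase Gpt2 (−0.36 ± 0.09, adjusted p = 0.000972) were among those lower. Against 24 h, 2 were lower and 5 higher, with a median of 0.19 (all tested genes: 22.1% lower, 19.8% higher). Cad of pyrimidine synthesis fell by 0.83 ± 0.09 on the log2 scale (adjusted p = 7.25e-18). Ass1 rose by 0.72 ± 0.19 (adjusted p = 0.000539), glutamine synthetase Glul by 0.50 ± 0.11 (adjusted p = 3.37e-05) and Got1 by 0.36 ± 0.10 (adjusted p = 0.00166).

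All 5 glycolytic enzymes around the branch point of serine synthesis were tested. At 48 h, 3 were lower than with the control sdAb, with a median log2 fold change of −0.52 over the 5, beside 6.75% lower over all tested genes. These were Eno1 (−0.46 ± 0.12, adjusted p = 0.00237), Gapdh (−0.55 ± 0.16, adjusted p = 0.00841) and Pkm (−0.43 ± 0.15, adjusted p = 0.0271). Against 24 h all 5 fell, with a median of −0.76, beside 22.1% lower over all tested genes. Pkm was at −0.83 ± 0.10 (adjusted p = 3.75e-16), Eno1 at −0.83 ± 0.10 (adjusted p = 1.11e-16), Pgam1 at −0.76 ± 0.27 (adjusted p = 0.0154) and Pgk1 at −0.49 ± 0.11 (adjusted p = 6.59e-05). Several of these enzymes have near-identical processed pseudogenes, so their counts are uncertain.

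All 18 genes of a list of amino acid response factors and their usual targets were tested. The list also holds the Eif2ak kinases and Myc, which are not all particular to this response. Against 24 h, 11 rose and 2 fell, with a median log2 fold change of 0.55, beside 19.8% higher, 22.1% lower and a median of −0.01 over all tested genes. Atf3 rose by 3.03 ± 0.40 (adjusted p = 1.4e-12), Ddit3 (CHOP) by 2.57 ± 0.11 (adjusted p = 5.82e-123), the kinase Eif2ak2 by 1.37 ± 0.11 (adjusted p = 5.27e-35) and Nupr1 itself by 0.66 ± 0.13 (adjusted p = 2e-06). Myc fell by 0.66 ± 0.10 (adjusted p = 7.46e-11). Atf4 mRNA also fell, by 0.26 ± 0.10 (adjusted p = 0.0187). Against sdAb-Con (48 h) 6 were lower and 1 higher, with a median of −0.17, beside 6.75% lower and 9.9% higher over all tested genes. Ddit3 (−0.61 ± 0.13, adjusted p = 6.1e-05), the glutathione-degrading Chac1 (−0.62 ± 0.13, adjusted p = 0.000109) and the pseudokinase Trib3 (−0.42 ± 0.09, adjusted p = 0.000245) were lower. Eif2ak2 was higher (0.81 ± 0.10, adjusted p = 1.47e-13), and Atf4 was at −0.17 ± 0.08 (adjusted p = 0.147).

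**Figure D4:**
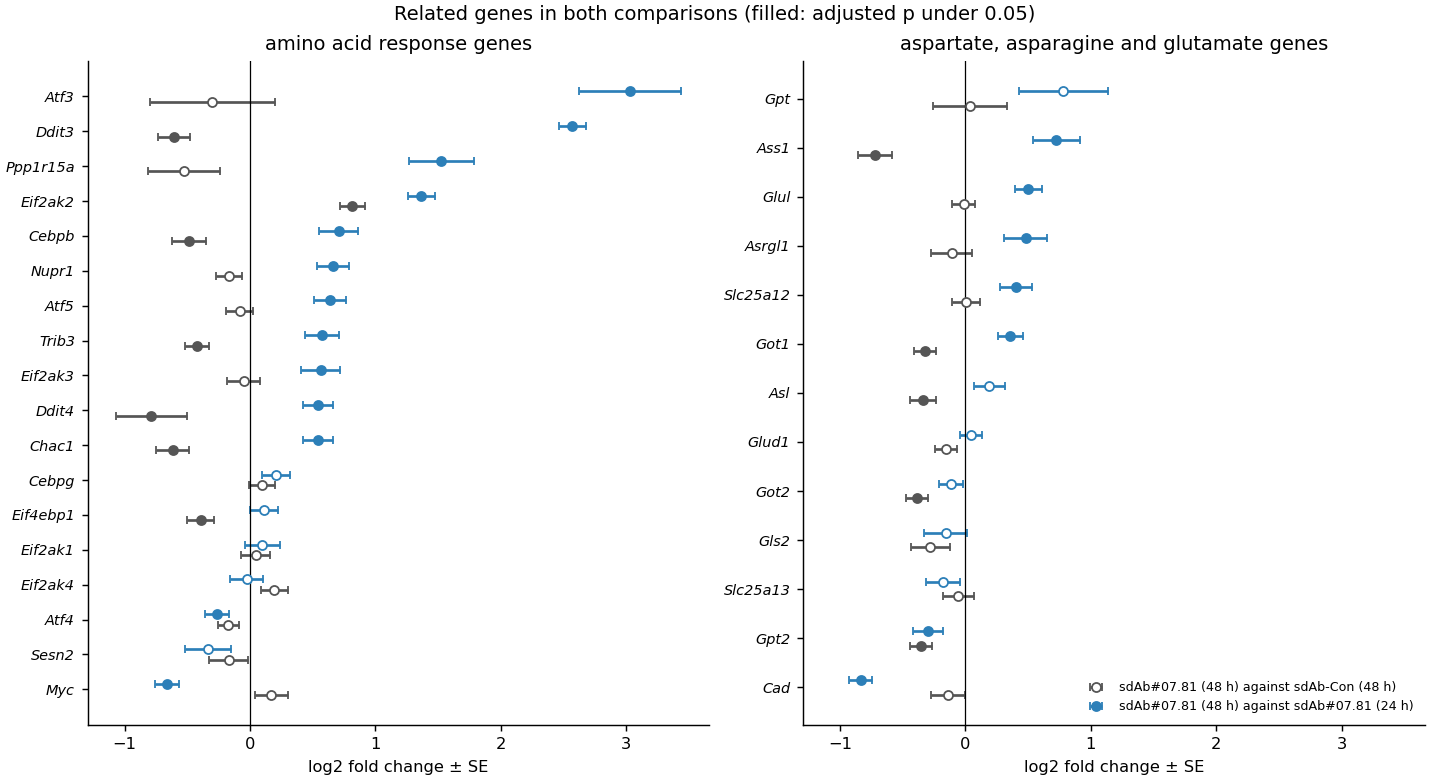
Log2 fold change with SE (x axis) of tested genes of the amino acid response list (left) and the aspartate, asparagine and glutamate list (right). Values against sdAb-Con (48 h) are gray and those against sdAb#07.81 (24 h) are blue. Filled points have an adjusted p under 0.05. On the left, 11 blue points are filled and right of 0, while 6 gray points are filled and left of it.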

How the data were processed

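Total RNA of 4T1 cells was sequenced as paired reads in 4 groups of 2 libraries. Per the labels, the authors used cutadapt 1.9.1, HISAT2 2.0.1 and HTSeq 0.6.1. The labels name a human genome build although the gene identifiers are mouse, and 2.02% of positions in the tables equalled those of GENCODE M21, so positions are given only as the tables list them. The strand setting of counting is not given in the sources used here. The authors deposited 2 tables of gene-wise comparisons, each over 4 libraries. For each gene the authors deposited a mean signal, the average of counts divided by size factors. The deposited fold change is a linear ratio, and the deposited log2 fold change is its logarithm, without shrinkage. The deposited score is the Wald statistic, and the deposited p-value is two-sided, with an adjustment over all genes. These comparison columns are the authors' own fit. They are used here as the main values because the tables list no library, and 0 columns belong to other samples.

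Deposited p-values were adjusted anew by Benjamini-Hochberg over genes with a mean of at least 10. Whole reads per library were recovered by finding the counts that give both tables' means to their 15 deposited digits. A single solution was found for 28690 of 28712 genes, none had several, 4 had none and 18 were too abundant to search. Log2 fold changes from these reads differed from the deposited ones by a median of at most 0.0007. One table names a group Nab-48h, which was read as sdAb-Con (48 h), the only other group of 48 h. For all 6 libraries on 1 scale, the size factors of the 24 h libraries were multiplied by 1.03, from the libraries both tables share. These reads were tested with limma-voom (limma 3.58.1, R 4.3.3), 3 groups in 1 fit, an analysis chosen after the values were seen. Read recovery, adjustment, trend removal and the limma-voom fit were tested on simulated data. Lengths and GC content are of the longest GENCODE M21 transcript, and the trend was a weighted polynomial of degree 3. The 10 genes and the 5 related lists were chosen with earlier results of these data known. All 10 genes are named, and of each list up to 4 called genes a comparison with the largest Wald statistics. Nupr1, Atf4 and the 5 genes nearest to Asns are also named. Of the gene and marker lists, 3 genes are not reported here and were left out of the counts. Scripts ran in Python 3.11.15 with scipy 1.17.1 for tests, pandas 2.3.3 and numpy 2.4.6 for tables, and figures were drawn with matplotlib 3.10.9.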

Additional observations from a re-analysis of the deposited data

How the results depend on the processing

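Against sdAb-Con (48 h), 8 of the 10 genes were called. The count was 5 over every gene with a deposited adjusted p, 8 with a mean of at least 100, 7 with centring on the median gene and 2 with the trend on length, GC content and mean count removed. It was 0 where a 1.5-fold change was also required, 0 where a log2 fold change of 1 was required, and 3 by limma-voom. Leaving out 1 library at a time from limma-voom gave 0 to 4, and it was 0 on leaving out either sdAb-Con library or the first sdAb#07.81 (48 h) library. A group left with 1 library is assumed to vary like the others. Against sdAb#07.81 (24 h), 6 genes were called, and the count was 2 where a log2 fold change of 1 was required and 4 to 8 under the other settings. Leaving out 1 library gave 5 or 6. For sdAb-Con (48 h) over sdAb#07.81 (24 h), limma-voom called 6, and 5 or 6 without 1 library. All genes called against sdAb-Con (48 h) numbered 2310, of which 936 were lower. Over every gene with a deposited adjusted p, 659 of 1794 were lower, and with a mean of at least 100, 1037 of 2398. With centring 788 of 2297 were lower, and with the 1.5-fold requirement 161 of 606. Where a log2 fold change of 1 was required, 19 of 154 were lower. With the trend removed 295 of 714 were lower, and by limma-voom 492 of 1428. Against 24 h the called genes numbered 5846, and 5240 over every gene with a deposited adjusted p. They numbered 5294 with a mean of at least 100, 5854 with centring and 3384 with the 1.5-fold requirement. They numbered 1466 where a log2 fold change of 1 was required, 5715 with the trend removed and 6014 by limma-voom. No count over all genes is given for the fits without 1 library. Aldh18a1 against 24 h turned direction, to 0.00699 with centring and 0.0483 with the trend removed, and it passed in neither. Leaving out 1 library, limma-voom gave −0.12 to 0.12 for Aldh18a1 and −0.08 to 0.03 for Psat1 against 24 h, and −0.13 to 0.21 for Mthfd2 in sdAb-Con (48 h) over sdAb#07.81 (24 h), and none of these 3 passed in the full fit. The cause of these changes was not tested beyond the construction of each setting. No paired analysis was possible because neither table ties a library to its replicate number. With 2 libraries a group, the smallest called change was 2.64 times its SE against sdAb-Con (48 h) and 2.31 times its SE against 24 h.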
